A study of Mus musculus with 466 samples.

Results

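The 33 genes described here encode matrix proteins other than collagens, the enzymes that fold, process and crosslink collagen, the metalloproteinases that cut the matrix and the inhibitors of those proteinases. They were taken from the array's probe-to-gene table by symbol, older synonyms included, and all 33 were found (Lamb1 under its older symbol Lamb1-1), among 16643 genes with a symbol. Together they had 68 of the 32640 probe sets. In each tissue a gene is represented by its brightest probe set on average, so that a level can be compared between days of one tissue but not between genes. All 33 passed the filter on dim probe sets in each of the 4 fat depots and 31 passed it in liver, where Fbln2 and Lox did not.

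The study put obese male C57BL/6J mice on caloric restriction and collected tissues of different animals after 1, 3, 7, 14, 21, 42 and 60 days, with mice at day 0 as the comparison. In total 80 mice gave arrays of total RNA. Fat labelled mesenteric, perigonadal, perirenal and subcutaneous, and liver, are described here, and the hypothalamus arrays were not analysed here. Day 42 had 11, 10, 12 and 11 arrays of the 4 depots in that order and 12 of liver, day 60 had 6 of each tissue, day 1 had 5, the other days had 9 to 12, and day 0 had 12, 11, 12 and 12 of the depots and 12 of liver. No mice kept without restriction were sampled after day 0, so days of restriction cannot be told apart from the ageing of the animals. How the mice were made obese and how far intake was cut are not given in the sources used here. All but 1 animal, of day 3, has a name that begins with J or N, and what the letters stand for is not stated. Day 1 held only J mice and day 60 only N mice, and the other days held both.

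The extracellular matrix of fat is a mesh of collagens, fibronectin, elastic fibres and proteoglycans around each adipocyte, with a basement membrane of laminins and nidogen at the cell surface. It is remodelled as adipocytes grow or shrink: lysyl oxidases crosslink collagen, matrix metalloproteinases cut it, and tissue inhibitors of metalloproteinases (TIMPs) hold them back. Obesity is known for excess matrix in fat. Matricellular proteins such as tenascin C, periostin, SPARC and the thrombospondins carry little load themselves and are known as signals to cells in tissues under repair.

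The deposited intensities were linear, with array means between 0.962 and 0.999 and values between 0.00638 and 39.3. Changes below are log2 differences of a restricted day against day 0, each with its standard error, from a limma fit per tissue with the letter as a second term. A gene was called where its Benjamini-Hochberg adjusted p over all genes of that tissue was under 0.05. All contrasts against day 0 in a tissue share the same day 0 mice, and the depots come from the same mice.

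Markers of other tissues varied widely between arrays of a depot, and the depot names below are the labels'. The summed intensity of epididymis markers in labelled mesenteric fat ran from 0.761 to 16.1 at day 42 and from 0.828 to 15.6 at day 0, whereas in labelled perigonadal fat it ran from 0.186 to 0.214 and from 0.184 to 0.208. Mesothelial markers summed to between 11 and 22.9 at day 42 and between 6.75 and 22.2 at day 0 in labelled subcutaneous fat, against 0.392 to 0.542 and 0.353 to 0.485 on the same days in labelled perigonadal fat. Intestinal markers in labelled subcutaneous fat ran from 10.7 to 35.3 and from 5.68 to 36.7 on those days. These marker levels go against the names mesenteric, perigonadal and subcutaneous, which are used here only as labels. Arrays far above their tissue in a score of another tissue numbered 20, 4, 18 and 11 in the depots, in the order mesenteric, perigonadal, perirenal and subcutaneous, and 5 in liver. Without them the same 21 of the 33 genes were called at day 42 in labelled perigonadal fat. Labelled mesenteric fat kept 18 of 19 calls and gained 1, labelled perirenal fat kept 12 of 16, labelled subcutaneous fat kept 3 of 11 and gained 1, and liver kept 2 of 3. Of all genes, 19.3% were then lower and 21.4% higher in labelled mesenteric fat, and 14.5% and 14.1% in labelled perigonadal fat. The shares were 6.96% and 9.14% in labelled perirenal fat, 1.26% and 0.35% in labelled subcutaneous fat, and 13.7% and 8.53% in liver. Calls at day 42 that depend on those arrays are named where they are given, and calls at other days are not marked in this way. With the other-tissue marker scores as covariates instead, labelled perigonadal fat lost 7 of its 21 calls and gained Timp3, leaving 9 lower and 6 higher against 10.1% and 13.6% of all genes. The calls lost were Timp1 (-0.31, adjusted p = 0.0589), Lox (-0.12, adjusted p = 0.202), Fbln2 (-0.13), Eln (-0.08), Bgn (-0.05), Lamb1 (-0.04) and Mmp14 (0.10). With those covariates labelled mesenteric fat lost 2 calls (Eln and Bgn) and gained 3, and labelled perirenal and subcutaneous fat lost none and gained 1 each. Of all genes, 18.5% were lower and 21.5% higher in labelled mesenteric fat in that fit. The shares were 10.5% and 13.7% in labelled perirenal fat and 5.37% and 3.8% in labelled subcutaneous fat.

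After 42 days of restriction most changes among the matrix genes of fat were falls. The inhibitor Timp1, the lysyl oxidases Lox and Loxl2, and the matricellular genes Sparc and Postn were called lower in all 4 depots. Those called higher were fewer, at 7 genes over the depots: the proteinases Mmp9, Mmp14 and Mmp2, the inhibitors Timp2 and Timp3, the proteoglycan gene Dcn and, in labelled perigonadal fat, the matricellular gene Thbs2. In labelled mesenteric fat 15 of the 33 were called lower and 4 higher, where 17.2% of all 13475 genes tested were called lower and 15% higher. The labelled perigonadal depot had 15 lower and 6 higher, against 13.6% and 13.2% of all genes. In labelled perirenal fat 15 were lower and 1 higher, against 9.39% and 12.6%. Labelled subcutaneous fat, where few genes were called at all, had 11 lower and 0 higher, against 2.95% and 1.09%. Without its 11 arrays high in other tissues' markers, 3 of them at day 42 and 2 at day 0, it had 3 lower (Sparc, Fbn1 and Nid1) and 1 higher (Mmp14), against 1.26% and 0.35% of all genes. In liver 2 of 31 were lower and 1 higher, against 13.2% and 8.08%. The median change of the listed genes at day 42 was -0.08, -0.09, -0.13 and -0.15 in the depots in the same order and -0.01 in liver, beside 0.0067, 0.0046, 0.014, 0.0056 and -0.012 for all genes tested. In whole fat, less RNA of these genes per cell and fewer of the cells that make them cannot be told apart.

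**Figure D1:**
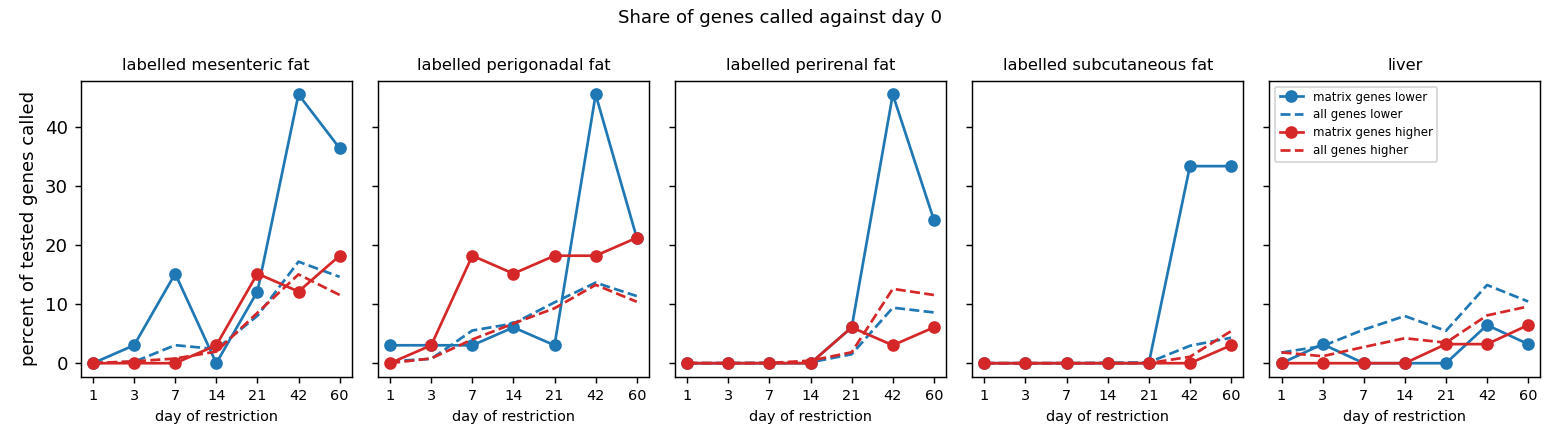
The percent of tested genes called lower (blue) and higher (red) than at day 0 is plotted against days of restriction, 1 to 60, in 1 panel per tissue. Solid lines with points are the matrix genes and dashed lines all genes tested; at day 42 the blue solid line lies above the blue dashed line in all 4 fat panels and below it in liver.

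Across depots at day 42, 5 of the 33 (Timp1, Lox, Loxl2, Sparc and Postn) were called lower in all 4 and another 7 (Fn1, Fbn1, Tnc, Lum, Nid1, Mmp3 and Serpinh1) in 3. Of 12729 genes tested in all 4 depots, 1.45% were called lower in all 4 and 6.7% in at least 3. Without the arrays high in other tissues' markers Sparc was the only one called lower in all 4, since Timp1, Lox, Loxl2 and Postn lost their call in labelled subcutaneous fat. With the other-tissue marker scores as covariates instead, Timp1 and Lox lost their call in labelled perigonadal fat. None of the 33 was called higher in more than 2 depots, against 5.51% of all genes called higher in at least 3. The genes called higher in 2 depots were Dcn, Timp3, Mmp9 and Mmp14. One gene, Thbs2, was called in opposite directions, lower in labelled subcutaneous and higher in labelled perigonadal fat.

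**Figure D2:**
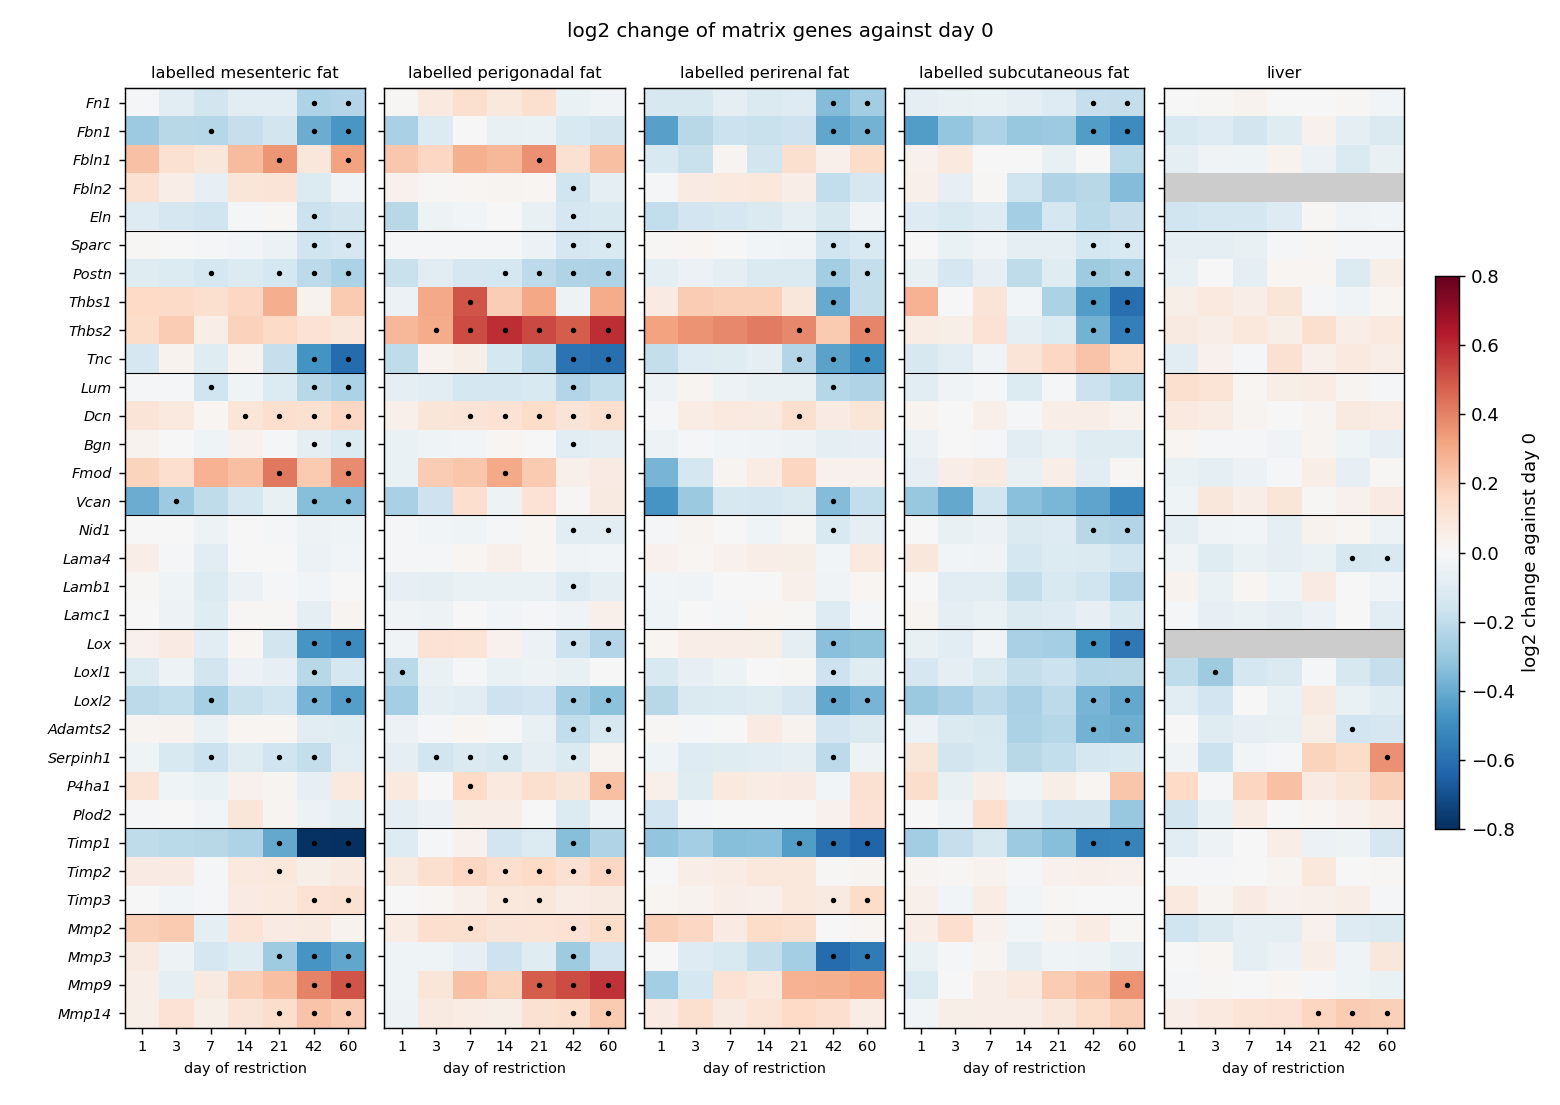
Colour gives the log2 change from day 0 (blue lower, red higher, limits -0.8 and 0.8) of each of the 33 genes, in rows grouped by role, at 7 days of restriction in columns for each of 5 tissues. A dot marks a call, and grey marks Fbln2 and Lox in liver, which were not tested; the dots in fat lie mostly at days 42 and 60, and the dots on red cells in labelled perigonadal fat begin at day 3 with Thbs2.

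Among the inhibitors, Timp1, which binds several metalloproteinases and also acts as a growth signal, changed most. In labelled mesenteric fat its lowest, median and highest intensities were 0.530, 0.716 and 0.867 at day 42, against 0.983, 1.155 and 1.693 at day 0. All 11 restricted mice lay below every day 0 mouse, and Timp1 was the only one of the 33 whose groups were separate in that direction there (0.364% of all genes). The change was -0.79 ± 0.091 (adjusted p = 4.44e-10). Labelled perirenal fat gave 0.339, 0.399 and 0.663 at day 42 and 0.464, 0.616 and 0.898 at day 0, a change of -0.60 ± 0.11 (adjusted p = 6.06e-05), with overlap. Labelled subcutaneous fat gave 0.230, 0.314 and 0.408 at day 42 and 0.290, 0.457 and 0.638 at day 0, which also overlapped, and the change was -0.54 ± 0.14 (adjusted p = 0.0133). Without the arrays high in other tissues' markers that change was also -0.54 but was not called (adjusted p = 0.0849). The smallest change was in labelled perigonadal fat, with 0.178, 0.206 and 0.251 at day 42 against 0.200, 0.267 and 0.338 at day 0 (-0.34 ± 0.12, adjusted p = 0.022). All 10 restricted mice there lay below the day 0 mean of their letter, though the ranges overlapped. Timp3, the inhibitor held in the matrix itself, was called higher by small amounts in labelled mesenteric fat (0.12 ± 0.033, adjusted p = 0.0035) and labelled perirenal fat (0.07 ± 0.027, adjusted p = 0.044; 0.06, adjusted p = 0.143, without the arrays high in other tissues' markers). Timp2, which helps Mmp14 activate the enzyme made from Mmp2, was called higher in labelled perigonadal fat, at 10.28, 11.73 and 12.81 on day 42 and 8.856, 11.04 and 11.84 on day 0 (0.12 ± 0.036, adjusted p = 0.00787). The inhibitors did not move as a group: Timp1 was lower, and Timp2 and Timp3 were slightly higher or not called.

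The metalloproteinases were divided as well. Mmp3, stromelysin 1, which cuts proteoglycans, fibronectin and laminin, was called lower in all but the subcutaneous-labelled depot. Its intensities in labelled perirenal fat were 0.607, 0.975 and 1.158 at day 42 and 0.989, 1.376 and 1.975 at day 0. All 12 restricted mice lay below the day 0 mean of their letter, and the change was -0.62 ± 0.12 (adjusted p = 0.000117). Labelled mesenteric fat gave 0.211, 0.277 and 0.365 at day 42 against 0.251, 0.381 and 0.467 at day 0 (-0.47 ± 0.090, adjusted p = 3.48e-05). The labelled perigonadal depot gave Mmp3 values of 1.454, 1.725 and 2.082 at day 42 against 1.87, 2.116 and 2.728 at day 0 (-0.29 ± 0.066, adjusted p = 0.000689). The groups overlapped in each of these depots. Labelled subcutaneous fat had nearly the same values on both days, 0.445, 0.582 and 0.735 at day 42 and 0.434, 0.580 and 0.743 at day 0 (-0.04, adjusted p = 0.898).

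Mmp9, gelatinase B, known mainly from neutrophils and macrophages, was called higher in labelled perigonadal fat, with 0.418, 0.560 and 0.743 at day 42 and 0.276, 0.401 and 0.505 at day 0. All 10 restricted mice were above the day 0 mean of their letter with partly overlapping ranges, and the change was 0.52 ± 0.12 (adjusted p = 0.000714). The labelled mesenteric depot gave 0.205, 0.292 and 0.583 at day 42 against 0.172, 0.233 and 0.294 at day 0 (0.40 ± 0.12, adjusted p = 0.00537). Mmp9 changed by 0.29 in labelled perirenal fat (adjusted p = 0.0972) and 0.24 in labelled subcutaneous fat (adjusted p = 0.162), neither of which was called. Mmp14, the membrane-bound collagenase that activates proMMP2, was called higher in labelled mesenteric fat, at 0.707, 0.857 and 1.024 on day 42 and 0.666, 0.713 and 0.774 on day 0 (0.23 ± 0.049, adjusted p = 0.000183). Its call in labelled perigonadal fat was narrow (0.14, adjusted p = 0.0443) and held under 5 of 14 alternative settings. So was that of Mmp2, gelatinase A (0.11 ± 0.044, adjusted p = 0.0447), which held under 10 of the 14, with 4.821, 5.461 and 5.985 at day 42 against 4.583, 4.99 and 5.273 at day 0. The change of Mmp2 in the other depots was 0.07 in labelled mesenteric (adjusted p = 0.363), -0.00 in labelled perirenal (adjusted p = 0.983) and 0.06 in labelled subcutaneous fat (adjusted p = 0.776).

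Of the matricellular genes, Tnc, which encodes tenascin C, a protein made chiefly in development and wound repair, was called lower in 3 depots. Intensities in labelled perigonadal fat were 0.435, 0.826 and 1.004 at day 42 and 0.998, 1.141 and 1.418 at day 0. The highest restricted mouse barely passed the lowest day 0 mouse, and the change was -0.59 ± 0.12 (adjusted p = 8.15e-05). Labelled mesenteric fat gave 0.406, 0.688 and 0.929 at day 42 and 0.738, 0.881 and 1.006 at day 0 (-0.48 ± 0.090, adjusted p = 2.36e-05, lower in 10 of 11 mice). Labelled perirenal fat gave 0.519, 0.745 and 0.931 at day 42 and 0.888, 0.984 and 1.197 at day 0 (-0.43 ± 0.061, adjusted p = 3.27e-07, lower in 12 of 12 mice). Tnc was not called in labelled subcutaneous fat, where its values ran wider, 0.739, 1.176 and 1.738 at day 42 and 0.630, 1.011 and 1.335 at day 0 (0.23 ± 0.17, adjusted p = 0.606).

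Thbs2, thrombospondin 2, an inhibitor of blood vessel growth made by stromal cells, went the other way in labelled perigonadal fat. It had 1.945, 2.535 and 3.326 at day 42, against 1.614, 1.776 and 1.917 at day 0. Every restricted mouse was above every day 0 mouse, which held for no other gene of the 33 in that direction (0.178% of all genes), and the change was 0.48 ± 0.077 (adjusted p = 1.42e-06). In labelled subcutaneous fat its values were 0.614, 0.947 and 1.297 at day 42 and 1.062, 1.205 and 1.508 at day 0 (-0.38 ± 0.096, adjusted p = 0.0115, lower in 9 of 11 mice). Without the arrays high in other tissues' markers this change was -0.29 (adjusted p = 0.194), whereas the call in labelled perigonadal fat stood. Thbs2 has a pair of probe sets on the array, and which of them was the brighter differed between depots. The probe set used in labelled perigonadal and perirenal fat changed by 0.48 and 0.21 there, by 0.52 in labelled mesenteric fat (adjusted p = 1.3e-06 over all probe sets) and by -0.36 in labelled subcutaneous fat (adjusted p = 0.184). The other changed by 0.12 in labelled mesenteric fat (adjusted p = 0.231), 0.21 in labelled perigonadal fat (adjusted p = 0.00193), 0.03 in labelled perirenal fat (adjusted p = 0.813) and -0.38 in labelled subcutaneous fat (adjusted p = 0.015). Both probe sets were thus higher in labelled perigonadal fat, and in labelled mesenteric fat the call depended on the probe set.

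The related gene Thbs1, thrombospondin 1, an activator of latent TGF-beta, was called lower in labelled subcutaneous fat, with 0.554, 0.656 and 1.073 at day 42 and 0.714, 0.941 and 1.198 at day 0 (-0.45 ± 0.13, adjusted p = 0.0321; -0.38, adjusted p = 0.201, without the arrays high in other tissues' markers). It was also lower in labelled perirenal fat, with 0.189, 0.385 and 0.510 at day 42 and 0.400, 0.494 and 0.609 at day 0 (-0.40 ± 0.11, adjusted p = 0.00532). Ranges overlapped in both depots, and the changes of 0.03 in labelled mesenteric fat (adjusted p = 0.884) and -0.04 in labelled perigonadal fat (adjusted p = 0.88) were not called. Sparc, a collagen-binding glycoprotein that fat releases in amounts that follow fat mass, changed by only -0.14 to -0.16 but with little spread. In labelled mesenteric fat it had 15.18, 17.98 and 19.7 at day 42 and 19.45, 19.87 and 20.57 at day 0 (-0.16 ± 0.025, adjusted p = 1.11e-06). All 11 restricted mice lay below the day 0 mean of their letter, with ranges that just touched. Sparc has a pair of probe sets, and the one used in labelled subcutaneous fat is not the one used in the other depots. The probe set used there changed by -0.04, -0.08 and -0.07 in labelled mesenteric, perigonadal and perirenal fat, and the other changed by -0.29 in labelled subcutaneous fat, all of which were called. Postn, periostin, which helps crosslink collagen, changed by -0.21 ± 0.044 in labelled mesenteric (adjusted p = 0.000143), -0.24 ± 0.048 in labelled perigonadal (adjusted p = 8.06e-05), -0.28 ± 0.056 in labelled perirenal (adjusted p = 0.000187) and -0.28 in labelled subcutaneous fat (adjusted p = 0.0133; -0.24, adjusted p = 0.127, without the arrays high in other tissues' markers).

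**Figure D3:**
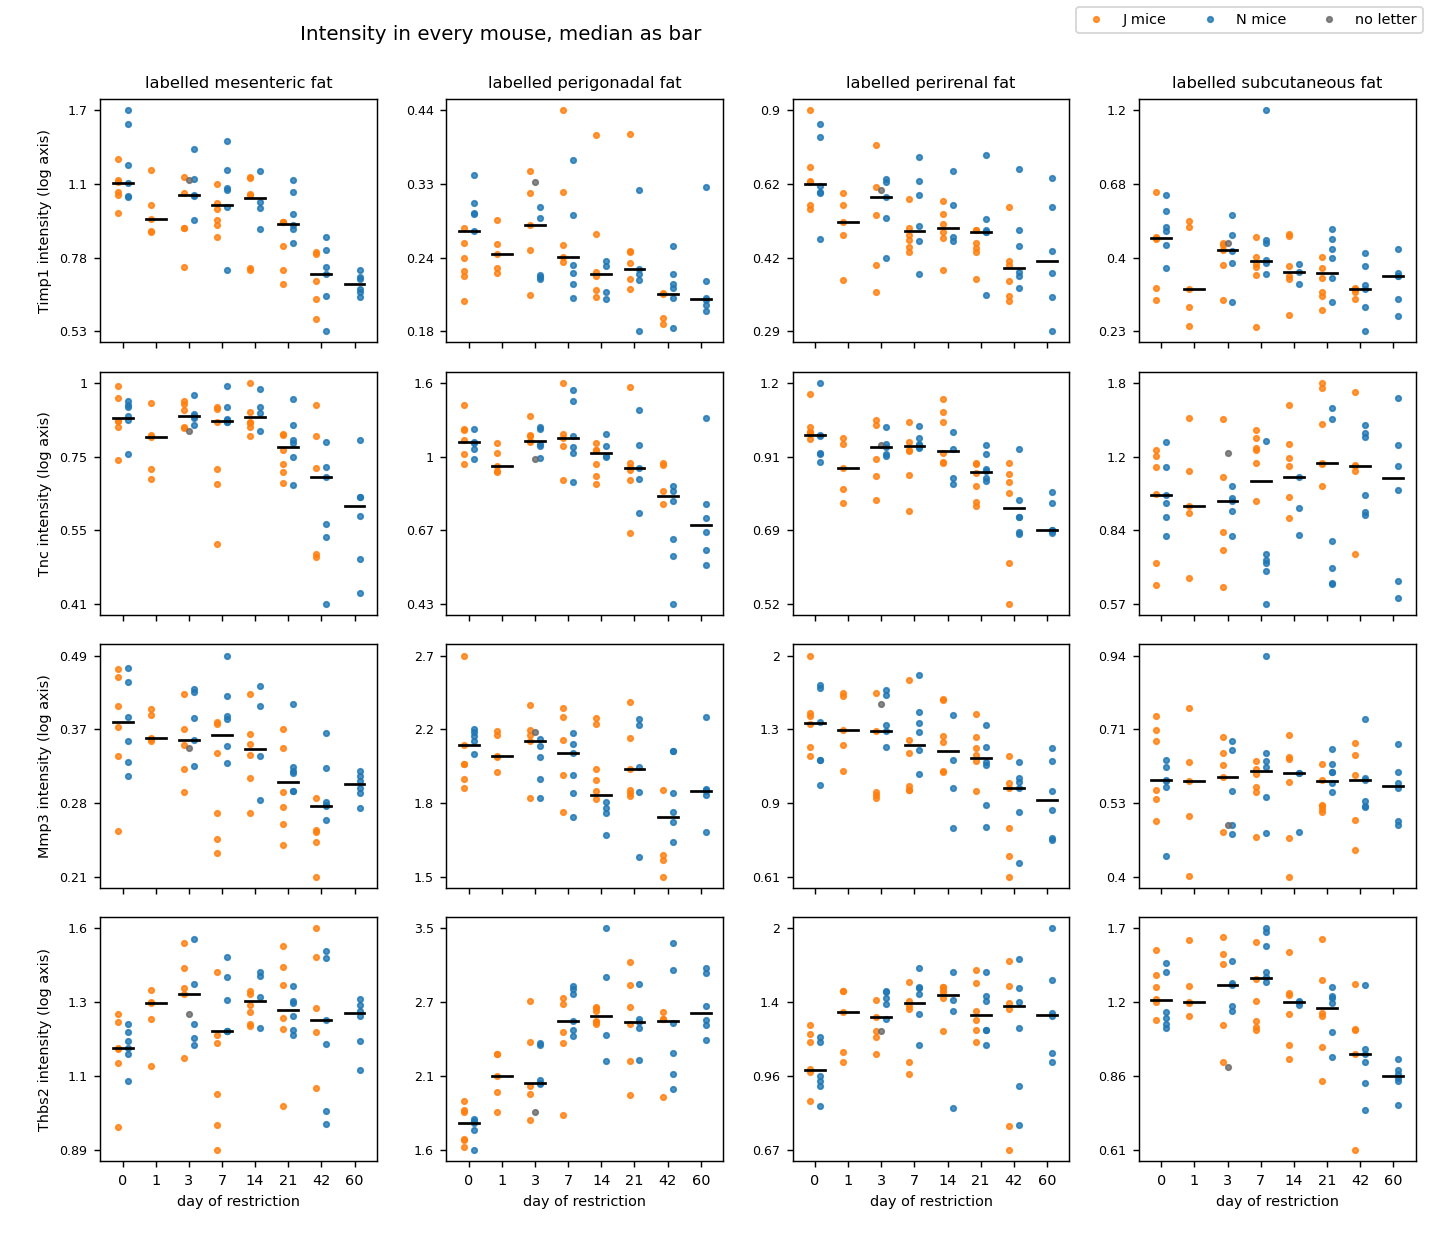
Deposited intensity of each mouse (log axis) against days of restriction, 0 to 60, for Timp1, Tnc, Mmp3 and Thbs2 in rows and the 4 labelled depots in columns. Points are mice (orange J, blue N, grey no letter) and bars medians; Timp1 in labelled mesenteric fat lies between 0.530 and 0.867 at day 42, below all day 0 mice, and Thbs2 in labelled perigonadal fat lies between 1.945 and 3.326, above them.

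The promoters of these 4 genes are shown because their changes carry most of the account above: Timp1 was called lower in all depots, Tnc and Mmp3 fell in 3, and Thbs2 moved in opposite directions. Each line gives the 250 bases before the gene's start in RefSeq's annotation of GRCm38.p6, read on the gene's own strand. Timp1 is at chrX:20869916-20870165 on the plus strand, Tnc at chr4:64047016-64047265 on the minus strand (1 of its 2 windows in the table), Mmp3 at chr9:7445572-7445821 on the plus strand and Thbs2 at chr17:14694263-14694512 on the minus strand. Capitals mark matches, on either strand, to the letters searched: TGANTCA for AP-1, GGAATG or CATTCC for TEAD, and TATAAA or TTTATA for the TATA box.
Timp1: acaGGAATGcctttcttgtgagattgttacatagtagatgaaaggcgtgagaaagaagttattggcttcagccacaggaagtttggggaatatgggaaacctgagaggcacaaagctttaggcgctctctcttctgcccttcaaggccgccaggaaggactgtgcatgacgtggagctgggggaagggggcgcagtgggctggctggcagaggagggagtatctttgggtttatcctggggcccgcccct
Tnc: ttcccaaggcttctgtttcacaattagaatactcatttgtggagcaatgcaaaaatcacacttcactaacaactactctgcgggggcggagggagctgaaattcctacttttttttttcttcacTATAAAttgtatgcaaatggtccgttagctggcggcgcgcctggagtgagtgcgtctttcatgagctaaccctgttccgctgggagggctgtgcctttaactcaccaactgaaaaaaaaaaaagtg
Mmp3: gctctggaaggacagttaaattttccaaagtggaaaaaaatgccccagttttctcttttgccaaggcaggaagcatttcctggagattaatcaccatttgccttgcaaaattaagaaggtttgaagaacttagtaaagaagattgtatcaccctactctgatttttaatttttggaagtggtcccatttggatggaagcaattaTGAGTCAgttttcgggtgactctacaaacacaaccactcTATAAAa
Thbs2: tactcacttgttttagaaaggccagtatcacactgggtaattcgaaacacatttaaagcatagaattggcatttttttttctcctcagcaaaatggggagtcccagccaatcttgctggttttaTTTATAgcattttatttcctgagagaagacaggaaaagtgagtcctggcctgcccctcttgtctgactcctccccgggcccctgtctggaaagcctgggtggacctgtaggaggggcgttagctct
Mmp3 held TGAGTCA 46 bases before its start and TATAAA 7 bases before it, Timp1 held GGAATG near the far end of the window, and Tnc and Thbs2 each held the TATA letters 126 bases before the start. No match overlapped another. Among all 32851 promoter windows, 6.75% held the AP-1 letters, 12.64% the TEAD letters and 12.37% the TATA letters. Of the 20 member genes with a window, 1, 2 and 4 held them in that order. These matches describe the letters and say nothing of binding.

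Among the structural and elastic genes, Fbn1, fibrillin 1, the core of microfibrils, fell in 3 depots. Its intensities in labelled subcutaneous fat were 3.372, 4.529 and 5.44 at day 42 and 4.292, 5.927 and 6.826 at day 0 (-0.45 ± 0.093, adjusted p = 0.00163). The labelled perirenal depot gave 2.817, 5.034 and 6.073 at day 42 and 5.061, 6.405 and 7.569 at day 0 (-0.41 ± 0.088, adjusted p = 0.00036). In labelled mesenteric fat it gave 3.874, 5.867 and 7.763 at day 42 and 6.386, 7.437 and 8.151 at day 0 (-0.40 ± 0.064, adjusted p = 1.47e-06). Restricted mice lay mostly below the day 0 range in the last depot, with overlap at the top. Fn1, fibronectin, the fibre that cells grip through integrins, changed in the same depots, by -0.35 ± 0.077 in labelled perirenal fat (adjusted p = 0.00058), -0.24 ± 0.049 in labelled mesenteric fat (adjusted p = 6.05e-05) and -0.18 in labelled subcutaneous fat (adjusted p = 0.0195; -0.14, adjusted p = 0.243, without the arrays high in other tissues' markers). In labelled perigonadal fat it overlapped nearly throughout, 5.005, 7.26 and 8.78 at day 42 and 5.314, 7.545 and 8.387 at day 0 (-0.05, adjusted p = 0.598). Eln, elastin, was lower in labelled mesenteric fat (-0.17, adjusted p = 0.0405; -0.14, adjusted p = 0.0974, without those arrays) and labelled perigonadal fat (-0.13, adjusted p = 0.0475), and Fbln2, an elastic fibre protein, in labelled perigonadal fat (-0.16, adjusted p = 0.0276). Fbln1, fibulin 1, was called in none of the depots at day 42.

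Of the 7 genes for collagen folding, processing and crosslinking, 4, 4, 4 and 3 were called lower in the depots in the order used above and none higher. Over all genes 17.2%, 13.6%, 9.39% and 2.95% were lower and 15%, 13.2%, 12.6% and 1.09% higher at day 42. Lox, lysyl oxidase, gave 0.792, 1.31 and 1.741 at day 42 and 1.523, 1.763 and 2.004 at day 0 in labelled mesenteric fat, where all 11 restricted mice lay below the day 0 mean of their letter (-0.47 ± 0.081, adjusted p = 3.94e-06). It gave 0.438, 0.653 and 0.918 at day 42 and 0.582, 0.924 and 1.075 at day 0 in labelled subcutaneous fat (-0.48 ± 0.14, adjusted p = 0.0344). Its change was -0.34 in labelled perirenal (adjusted p = 0.0182) and -0.17 in labelled perigonadal fat (adjusted p = 0.0334). The call of Lox in labelled perigonadal fat was lost with the other-tissue marker scores as covariates. The change there was -0.07 in J mice alone (adjusted p = 0.698) and -0.25 in N mice alone (adjusted p = 0.045). Mouse N70 of that depot stood apart at day 42 with 1.639 (others 2.234 to 2.791), and a fit without it was not run. Without the arrays high in other tissues' markers the changes of Lox in labelled subcutaneous (-0.48, adjusted p = 0.131) and perirenal fat (-0.26, adjusted p = 0.104) were not called. Loxl2, a lysyl oxidase with a preference for basement membrane collagen, changed by -0.37 ± 0.067 in labelled mesenteric (adjusted p = 1.12e-05), -0.28 ± 0.060 in labelled perigonadal (adjusted p = 0.000279), -0.41 ± 0.088 in labelled perirenal (adjusted p = 0.000417) and -0.37 ± 0.10 in labelled subcutaneous fat (adjusted p = 0.0217; -0.33, adjusted p = 0.168, without those arrays). Adamts2, which removes the amino-terminal propeptide of procollagen, had separate groups in labelled perigonadal fat, 6.098, 7.183 and 7.484 at day 42 and 7.633, 7.922 and 8.428 at day 0. This change was -0.19 ± 0.030 (adjusted p = 7.95e-07), and Adamts2 was the only one of the 33 with all restricted mice below all day 0 mice there (1.23% of all genes). In labelled subcutaneous fat Adamts2 gave 4.287, 4.746 and 6.32 at day 42 and 5.075, 6.643 and 7.534 at day 0 (-0.38 ± 0.088, adjusted p = 0.00459; -0.34, adjusted p = 0.065, without those arrays). Serpinh1, the collagen chaperone HSP47, changed by -0.19 in labelled mesenteric (adjusted p = 0.000253), -0.12 in labelled perigonadal (adjusted p = 0.0183) and -0.21 in labelled perirenal fat. P4ha1 and Plod2, which hydroxylate collagen on proline and lysine, were called in no depot at day 42.

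The proteoglycan genes did not move together. Vcan, versican, a large hyaluronan-binding proteoglycan, was called lower in labelled mesenteric fat, with 0.528, 0.911 and 1.062 at day 42 and 0.709, 1.087 and 1.231 at day 0 (-0.34 ± 0.074, adjusted p = 0.000259), and in labelled perirenal fat (-0.34 ± 0.080, adjusted p = 0.00101). Labelled subcutaneous fat gave 0.322, 0.423 and 0.629 at day 42 and 0.325, 0.657 and 0.778 at day 0. Although all 11 restricted mice there lay below the day 0 mean of their letter, the change of -0.42 was not called (adjusted p = 0.0967). Lum, lumican, which spaces collagen fibrils, changed by -0.22, -0.23 and -0.23 in labelled mesenteric, perigonadal and perirenal fat. Dcn, decorin, a small proteoglycan that binds collagen and TGF-beta, was called higher in labelled mesenteric fat, with 13.97, 15 and 15.93 at day 42 and 12.51, 13.89 and 14.65 at day 0 (0.12 ± 0.027, adjusted p = 0.000371, higher in 11 of 11 mice). In labelled perigonadal fat Dcn had 11.6, 13.44 and 14.57 at day 42 and 10.9, 12.61 and 13.24 at day 0 (0.10, adjusted p = 0.01). Fmod, fibromodulin, was called in no depot at day 42.

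Of the 4 basement membrane genes, Nid1 and Lamb1 were called in fat at day 42, both lower and neither in labelled mesenteric fat. Over all genes 17.2%, 13.6%, 9.39% and 2.95% were lower in labelled mesenteric, perigonadal, perirenal and subcutaneous fat. Nid1, nidogen 1, which links laminin to collagen IV, gave 6.673, 7.765 and 9.476 at day 42 and 8.451, 9.255 and 9.595 at day 0 in labelled subcutaneous fat (-0.22 ± 0.047, adjusted p = 0.00194). It was also lower in labelled perirenal fat (-0.12; -0.09, adjusted p = 0.0941, without the arrays high in other tissues' markers) and labelled perigonadal fat (-0.09). Lamb1, the laminin beta 1 chain, was called lower in labelled perigonadal fat (-0.10, adjusted p = 0.00682), whereas Lama4 and Lamc1, the laminin alpha 4 and gamma 1 chains, were called in none of the depots.

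**Figure D4:**
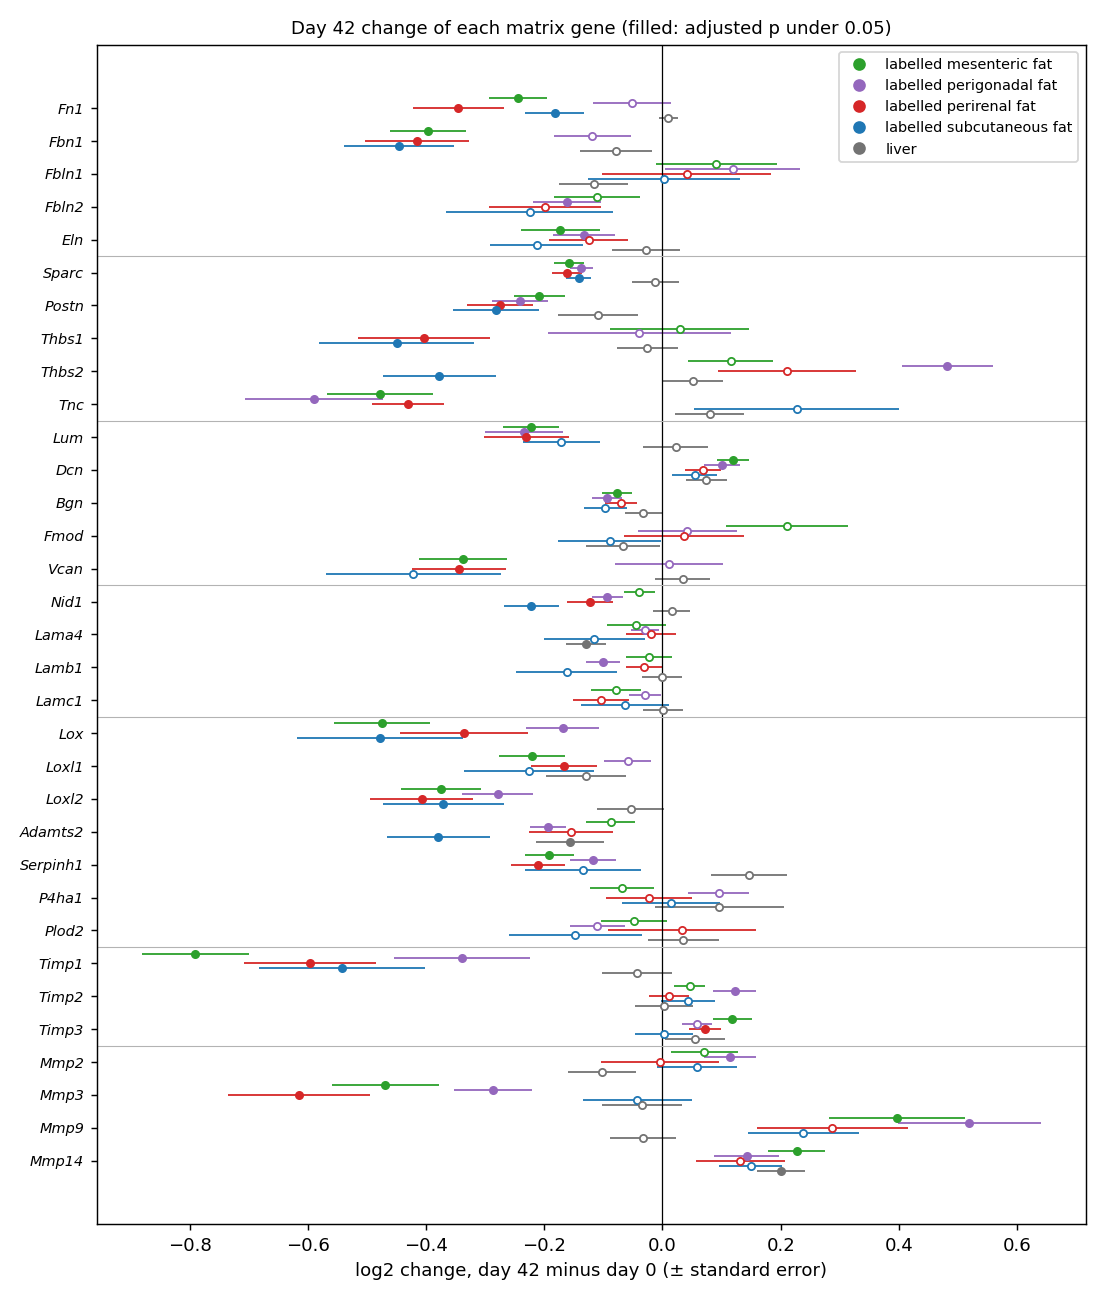
Points give the log2 change at day 42 against day 0 and bars its standard error for each of the 33 genes, with the 4 labelled depots and liver in separate colours; filled points were called. Timp1 lies lowest in labelled mesenteric fat at -0.79, and Thbs2 splits into 0.48 in labelled perigonadal and -0.38 in labelled subcutaneous fat.

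In labelled subcutaneous and perirenal fat few genes of any kind were called before day 21, whereas the other depots had earlier calls. In labelled subcutaneous fat none of the 33 was called by limma at days 1, 3, 7, 14 or 21, when between 0% and 0.141% of all genes were called in either direction, and 2, 4, 2, 11 and 11 members had an unadjusted p under 0.05. Labelled perirenal fat had no calls at days 1, 3, 7 and 14, with 7, 6, 4 and 4 members at an unadjusted p under 0.05. Over all its genes 0%, 0.0147%, 0.0587% and 0.154% were lower and 0.0367%, 0.00734%, 0.0367% and 0.433% higher on those days. At day 21 its Tnc (-0.23) and Timp1 (-0.45, adjusted p = 0.0151) were lower and Thbs2 (0.39, adjusted p = 0.0461) and Dcn (0.13) higher, against 1.51% of all genes lower and 1.85% higher. Labelled mesenteric fat had none at day 1 (0.0148% of all genes lower, 0.0297% higher, 5 members at an unadjusted p under 0.05) and Vcan lower at day 3 (-0.29, adjusted p = 0.0498, with 0.23% of all genes lower and 0.312% higher). It had 5 members lower and 0 higher at day 7, against 3.05% and 0.787% of all genes: Fbn1 (-0.23), Loxl2 (-0.26), Postn (-0.14), Lum (-0.16) and Serpinh1 (-0.17). At day 14 Dcn alone was called, higher by 0.10, against 2.39% of all genes lower and 1.97% higher. By day 21 it had 4 lower (8.01% of all genes) and 5 higher (8.53%). The 5 were Fmod (0.42), Fbln1 (0.35), Mmp14 (0.14), Dcn (0.13) and Timp2 (0.08), and of these Fmod, Fbln1 and Timp2 were not called at day 42.

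The course of Timp1 in labelled mesenteric fat was gradual after day 14. Its medians were 1.155, 0.956, 1.081, 1.027, 1.065, 0.933, 0.716 and 0.680 at days 0, 1, 3, 7, 14, 21, 42 and 60. The first call was at day 21 (-0.41 ± 0.089, adjusted p = 0.000637), and at day 60 the change was -0.90 ± 0.11 (adjusted p = 5.76e-09).

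In labelled perigonadal fat matrix genes were called higher earlier in restriction; differences from the other depots at these days were not tested. Thbs2 was called higher from day 3 onwards, with medians of 1.776, 2.091, 2.037, 2.536, 2.577, 2.526, 2.535 and 2.606 at days 0 to 60. At day 3 it was called with Serpinh1, 1 higher and 1 lower of the 33, against 0.81% and 0.729% of all genes. Its change had reached its day 42 size by day 7, when the change was 0.52 (adjusted p = 1.24e-06). At day 7, 6 members were higher (4.01% of all genes) and 1 lower (5.53%). Beside Thbs2 these were Thbs1 (0.50 ± 0.15, adjusted p = 0.0224, higher in 9 of 11 mice), Timp2 (0.16), P4ha1 (0.16), Mmp2 (0.13) and Dcn (0.10). Day 14 gave 5 higher and 2 lower, with 6.71% of all genes in each direction, and day 21 gave 6 higher (9.29%) and 1 lower (10.3%). At day 1 only Loxl1, a lysyl oxidase of elastic fibres, was called in any tissue (-0.22, adjusted p = 0.0269, lower in 4 of 5 mice, against 0.342% of all genes lower and 0.0149% higher). Leaving out any of 3 single mice (J15, J20 or J60) left 0 calls, and leaving out J80 gave 4.

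Set against day 3, when mice were also restricted, day 42 was lower for 10 members in labelled mesenteric fat (13.6% of all genes), 10 in labelled perigonadal (11.5%), 12 in labelled perirenal (9.21%) and 2 in labelled subcutaneous fat (1.09%). Members called higher were 2 in labelled mesenteric fat (9.89% of all genes), 1 in labelled perigonadal (10.8%), 1 in labelled perirenal (11.6%) and 0 in labelled subcutaneous fat (0.327%). Mmp9 was higher in the first 3, by 0.47, 0.42 and 0.43. The largest called falls in the first 3 depots were Tnc in labelled perigonadal fat (-0.62), Thbs1 in labelled perirenal fat (-0.61) and Timp1 in labelled mesenteric fat (-0.57).

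By day 60, 12, 7, 8 and 11 members were lower in the depots in the same order, where 14.6%, 11.4%, 8.59% and 4.31% of all genes were. Those higher numbered 6, 7, 2 and 1, against 11.5%, 10.4%, 11.5% and 5.42%. In labelled perirenal fat 4 members were called without the arrays high in other tissues' markers. The share of all genes called in that fit is not given, nor is which calls at day 60 depend on those arrays, in this depot or the others. The day 60 counts and changes here are those with all arrays. Sparc, Loxl2 and Postn were lower in all 4 depots, as were 1.27% of all genes, and 8 members were lower in at least 3, as were 5.37%. Only Mmp9 was higher in 3 (5.31% of all genes were higher in at least 3), by 0.50 ± 0.14, 0.58 ± 0.14 and 0.36 ± 0.12 in labelled mesenteric, perigonadal and subcutaneous fat. In labelled subcutaneous fat Thbs2 was lower (-0.55 ± 0.12, adjusted p = 0.00141). Tnc changed by -0.62 (adjusted p = 1.47e-05), -0.61 ± 0.14 (adjusted p = 0.000858) and -0.49 ± 0.077 (adjusted p = 3.72e-06) in labelled mesenteric, perigonadal and perirenal fat. Between day 60 and day 42 themselves no member was called by limma in any tissue, although 2, 3, 2 and 0 members of the depots and 2 of liver had an unadjusted p under 0.05. At most 0.00744% of all genes were called.

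The depots' changes at day 42 were compared in 6 pairs. Thbs2 differed between labelled perigonadal and labelled subcutaneous fat by 0.84 ± 0.16 (approximate 95% interval 0.52 to 1.16, adjusted p = 0.00305) and between labelled mesenteric and labelled subcutaneous fat by 0.49 ± 0.12 (0.26 to 0.73, adjusted p = 0.013). These values come from different probe sets of Thbs2. With the mean of its probe sets the differences were 0.71 (adjusted p = 0.00152) and 0.68 (adjusted p = 0.00117). Tnc differed in the same pairs the other way, by -0.82 ± 0.21 (-1.24 to -0.40, adjusted p = 0.0415) and -0.71 ± 0.20 (-1.09 to -0.32, adjusted p = 0.0279). Labelled mesenteric and labelled subcutaneous fat also differed in Mmp3 (-0.43 ± 0.13, adjusted p = 0.0475) and Nid1 (0.18 ± 0.054, adjusted p = 0.0417). With the mean of all probe sets of a gene, neither Mmp3 (-0.43, adjusted p = 0.053) nor Nid1 (0.17, adjusted p = 0.362) was called. The same held with no letter term, for Mmp3 (-0.42, adjusted p = 0.0711) and Nid1 (0.18, adjusted p = 0.0726). For labelled mesenteric minus labelled subcutaneous fat 1.48% of all genes had a lower and 1.38% a higher difference, and for labelled perigonadal minus labelled subcutaneous fat 0.427% and 0.217%. No member was called in the other 4 pairs, where at most 0.623% of all genes were called in a direction and 8 (mesenteric minus perigonadal), 2 (mesenteric minus perirenal), 5 (perigonadal minus perirenal) and 5 (perirenal minus subcutaneous) had an unadjusted p under 0.05.

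Since each mouse gave several depots, the difference was also taken within animals. The 6 calls remained: Thbs2 gave 0.73 (adjusted p = 0.000184) and 0.43 (adjusted p = 0.00153), Tnc -0.98 (adjusted p = 0.0077) and -0.75 (adjusted p = 0.0187), Mmp3 -0.40 (adjusted p = 0.0366) and Nid1 0.17 (adjusted p = 0.0275). Within animals Timp1 (-0.48, adjusted p = 0.0396) and Lox (-0.32, adjusted p = 0.0113) also differed between labelled mesenteric and perigonadal fat, and Adamts2 (0.31, adjusted p = 0.0392) between labelled mesenteric and subcutaneous fat. The share of all genes called in the within-animal fit is not given, so these further calls cannot be set against it. Without the arrays high in other tissues' markers, Mmp3 was the only member called between labelled mesenteric and labelled subcutaneous fat (-0.55, adjusted p = 0.0489). Between those depots Tnc then gave -0.78 (adjusted p = 0.0556, -0.71 with all arrays), Nid1 0.17 (adjusted p = 0.161, 0.18 with all arrays) and Thbs2 0.24 (adjusted p = 0.354, 0.49 with all arrays). Without them Thbs2 gave 0.64 (adjusted p = 0.0575) and Tnc -0.82 (adjusted p = 0.105) between labelled perigonadal and labelled subcutaneous fat.

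Liver changed little in these genes. No member was called at days 1, 7 and 14 (3, 4 and 6 at an unadjusted p under 0.05), when 1.8%, 5.68% and 7.98% of all genes were lower and 1.83%, 2.73% and 4.23% higher. At day 3 Loxl1 was lower (-0.28, adjusted p = 0.00985, against 2.9% of all genes). Mmp14 was the only member called higher at day 42, with 0.533, 0.601 and 0.769 at day 42 and 0.500, 0.527 and 0.573 at day 0. All 12 restricted mice lay above the day 0 mean of their letter with overlapping ranges, and the change was 0.20 ± 0.040 (adjusted p = 0.000109). It was the one member called at day 21 (0.17, adjusted p = 0.00237, with 3.47% of all genes higher) and was higher at day 60 as well (0.19, adjusted p = 0.00394), when 2 members were higher and 1 lower, against 9.6% and 10.4% of all genes. Lama4 (-0.13 ± 0.034, adjusted p = 0.00272) and Adamts2 (-0.16 ± 0.058, adjusted p = 0.0416; -0.15, adjusted p = 0.0601, without the arrays high in other tissues' markers) were lower at day 42. Serpinh1 was called higher at day 60, with 0.491, 0.558 and 0.633 against 0.355, 0.422 and 0.510 at day 0 (0.37 ± 0.081, adjusted p = 0.000403), higher in 6 of 6 mice. Set against day 3, day 42 had Mmp14 (0.12) and Serpinh1 (0.32, adjusted p = 0.000628) higher and no member lower, against 5.95% and 6.91% of all genes. Fn1, whose product the liver secretes into plasma, kept a median of 16.2 on days 42 and 0 (0.01, adjusted p = 0.705). Timp1 (-0.04, adjusted p = 0.667) and Sparc (-0.01, adjusted p = 0.864) were not called. Timp1, Vcan, Mmp3, Thbs1 and Tnc were dim in liver, with day 0 medians of 0.0527, 0.0550, 0.0556, 0.0769 and 0.0846. The medians of whole liver arrays lay between 0.125 and 0.132. With a filter at the median of all probe sets, only 22 members were left in liver. For such dim genes a missing call says little about the transcript.

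The letter of the animal name also went with the level of many of these genes. Relative to J mice, N mice had 17 of the 33 genes called higher and 0 lower in labelled mesenteric fat (17.5% and 12.6% of all genes) and 13 higher and 0 lower in labelled subcutaneous fat (5.15% and 3.19%). Among labelled perigonadal arrays 1 (Serpinh1) was higher and 0 lower (0.751% and 1.59%), and in labelled perirenal fat none was called (0.022% lower and 0.0367% higher over all genes). Liver had Lamb1 higher and Fn1 and Mmp14 lower, against 9.91% and 4.89%. The change at day 42 did not differ by letter for any of the 33 at an adjusted p under 0.05 in limma, nor for any gene tested, and 3, 2, 1 and 0 members of the depots and 1 of liver had an unadjusted p under 0.05. The sign of the change was the same in both letters for 31, 27, 28 and 28 of 33 genes in the depots and 21 of 31 in liver. Timp1 in labelled mesenteric fat changed by -0.71 in J mice (adjusted p = 0.00166) and -0.86 in N mice (adjusted p = 1.04e-05). Thbs2 in labelled perigonadal fat changed by 0.45 in J mice (adjusted p = 0.0122) and 0.52 in N mice (adjusted p = 0.00103). The fall of Mmp3 in labelled perirenal fat was called in J mice alone (-0.74, adjusted p = 0.00366) and not in N mice alone (-0.49, adjusted p = 0.0841).

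**Figure D5:**
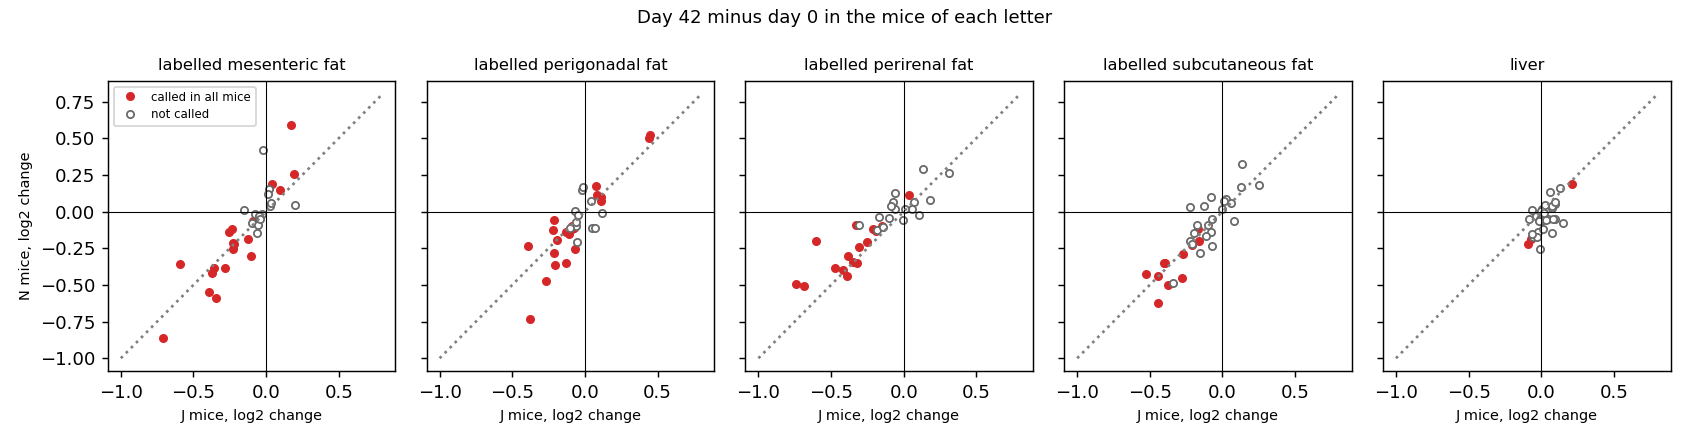
Each point is a gene of the 33, with its log2 change at day 42 in J mice on the horizontal axis and in N mice on the vertical axis, in 1 panel per tissue; red points were called over all mice and the dotted line marks equal changes. Timp1 in labelled mesenteric fat lies at -0.71 and -0.86, and Thbs2 in labelled perigonadal fat at 0.45 and 0.52.

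Other genes of the same pathways were read from 5 further lists. Counts are for day 42, when 17.2%, 13.6%, 9.39% and 2.95% of all genes were lower and 15%, 13.2%, 12.6% and 1.09% higher in labelled mesenteric, perigonadal, perirenal and subcutaneous fat. Of other proteases and inhibitors, 10 of 30 were lower and 3 higher in labelled mesenteric fat, 10 and 3 in labelled perigonadal, 7 and 1 in labelled perirenal and 5 and 0 in labelled subcutaneous fat. The shares higher lay below those of all genes in each depot. Adam12, a membrane protease linked to fat cell formation, was lower in all depots, by -0.71 ± 0.071 in labelled mesenteric (adjusted p = 1.31e-11), -0.80 in labelled perigonadal (adjusted p = 4.72e-12), -0.53 in labelled perirenal (adjusted p = 4.18e-09) and -0.54 in labelled subcutaneous fat (adjusted p = 9.48e-05). Mmp11, stromelysin 3, was higher in labelled mesenteric fat (0.56 ± 0.079, adjusted p = 7.75e-08), and Adamts4, an aggrecanase, was lower in labelled perigonadal (-0.59, adjusted p = 1.79e-05), perirenal (-0.46) and subcutaneous fat (-0.52, adjusted p = 0.00265). Among other matrix glycoproteins and proteoglycans 12 of 34 were lower and 5 higher in labelled mesenteric fat, 11 and 5 in labelled perigonadal, 10 and 3 in labelled perirenal and 5 and 0 in labelled subcutaneous fat, with the shares higher near or below those of all genes. Hspg2, perlecan of the basement membrane, changed by -0.40, -0.33 and -0.34 in the first 3 depots, and Cilp, a cartilage matrix protein also found in fat, by -0.66 in labelled subcutaneous fat (adjusted p = 3.85e-05).

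Other genes for collagen folding and crosslinking were lower for 6 of 11, 4 of 12, 5 of 11 and 1 of 12 and higher for 0, 1, 0 and 0 in the depots at day 42, where 17.2%, 13.6%, 9.39% and 2.95% of all genes were lower and 15%, 13.2%, 12.6% and 1.09% higher. P3h1, a prolyl 3-hydroxylase, changed by -0.37, -0.26 and -0.29 in labelled mesenteric, perigonadal and perirenal fat. Matrix receptors were lower for 6, 4, 4 and 0 of 17 or 18 and higher for 2, 2, 0 and 0, below the share of all genes higher in every depot, with Itgb1, the common beta subunit of fibronectin and collagen receptors, at -0.21, -0.21 and -0.17 in the same 3 depots. The TGF-beta list, the main pathway known to induce matrix genes, had 3 of 20 lower and 3 higher in labelled mesenteric fat, near the shares of all genes, 3 and 7 in labelled perigonadal, 1 and 5 in labelled perirenal and 1 and 0 in labelled subcutaneous fat. The shares higher on this list lay above those of all genes in labelled perigonadal and perirenal fat. Tgfb1 itself was among the 3 lower in labelled mesenteric fat (-0.22, adjusted p = 1.59e-05).

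Markers of macrophages and of fibroblasts, cells that make or cut matrix, were read at day 42. Over all genes 17.2%, 13.6%, 9.39% and 2.95% were lower and 15%, 13.2%, 12.6% and 1.09% higher in labelled mesenteric, perigonadal, perirenal and subcutaneous fat. Macrophage markers were lower for 6 of 11 and higher for 0 in labelled mesenteric fat, where their summed intensity ran from 50.7 to 66.2 at day 42 and 57.3 to 69.7 at day 0. In labelled perigonadal fat 1 of 10 was lower and 1 higher, with sums of 28.9 to 40.2 at day 42 and 24.9 to 38.5 at day 0. Labelled perirenal fat had 2 lower and 0 higher (39.6 to 64.5 at day 42, 46.9 to 65.5 at day 0), and labelled subcutaneous fat had 0 of either (27.8 to 38.5 at day 42, 29.8 to 36.9 at day 0). With the macrophage score as a further term, 12 members were lower and 7 higher at day 42 in labelled mesenteric fat, against 13.9% and 15% of all genes in that fit. The counts were 15 and 6 in labelled perigonadal fat (14.1% and 14.1%), 11 and 7 in labelled perirenal fat (8.81% and 14.6%) and 9 and 1 in labelled subcutaneous fat (2.32% and 1.15%). Fibroblast markers were lower for 1 and higher for 2 of 7 in labelled mesenteric fat (28.3 to 33.2 at day 42, 27.5 to 31.5 at day 0), for 1 and 2 in labelled perigonadal fat (31.6 to 41.9 at day 42, 29.1 to 38.9 at day 0) and for 1 and 1 in labelled perirenal fat (26.3 to 36.8 at day 42, 29.6 to 34.5 at day 0). None was called in labelled subcutaneous fat (30.2 to 34.6 at day 42, 30.7 to 33.6 at day 0). Muscle markers reached 64.3 at day 42 and 56.4 at day 0 in labelled perigonadal fat, and pancreas markers 26.1 and 12.7 in labelled subcutaneous fat. The part of other tissues' RNA in the changes was not tested beyond the counts without the arrays high in these markers and with the marker scores as covariates.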

How the data were processed

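Total RNA of each tissue was measured on Affymetrix arrays, per the labels. The authors deposited 1 linear intensity per probe set and array; its normalisation is not stated in the labels or headers used here. Array means near 1 were read from the values.

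Intensities were taken as log2 without an offset. Probe sets were named from the platform table, with older symbols updated through RefSeq (GRCm38.p6). Genes whose probe set did not exceed the 25th percentile of probe set means in a tissue were left out. Each tissue was fitted with limma 3.58.1 (R 4.3.3), with day and letter as terms and trended, robust variances; tests are two-sided and p-values were adjusted over all genes tested (Benjamini-Hochberg, threshold 0.05). The fit was tested on simulated data. Depot differences used both depots' arrays with no animal block, and within-animal differences (the replicate block) were the alternative. Depots were paired by the animals' names. The median correlation of same-animal residuals lay between 0.0566 and 0.16 over the 6 pairs. Correlations between different animals were not computed, so these values do not test the pairing.

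An array counted as high in another tissue's markers where its score lay over 3.5 robust SD above its tissue's median. The precision of each value is limited by the number of mice. The members and all gene lists were chosen with earlier results of these data known. The genes given with full values follow a rule that takes up to 5 called changes in each direction per tissue, the largest called depot differences, and, whatever they showed, Fn1, Sparc, Postn, Thbs1, Tnc, Vcan, Lox, Timp1, Mmp2, Mmp3 and Mmp14; others were added after their values were seen. Genes of the 5 further lists were taken by smallest adjusted p. Alternatives covered scaling, the filter, the probe set rule, the letter, the variance model, an offset of 0.1, marker scores as covariates and leaving out arrays or day 1 mice.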

Additional observations from a re-analysis of the deposited data

Results flagged for a closer look

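Of 85 groups of 4 to 10 mice among the genes described in full, 10 held a mouse far from the others, where chance alone gives about 1 in 20. At day 60 in labelled mesenteric fat, mouse N59 had 0.7073 for Mmp14, below the others at 0.8227 to 0.8829, and mouse N14 had 5.539 for Postn, above the others at 4.641 to 4.95. In labelled perigonadal fat at day 42, mouse N70 stood apart for 3 genes. It had 1.639 for Lox (others 2.234 to 2.791), 0.2394 for Thbs1 (others 0.404 to 0.6102) and 0.9946 for Mmp14 (others 0.7261 to 0.8402). At day 60 in the same depot N59 had 0.9319 for Mmp14 (others 0.7813 to 0.8269), N43 had 17.1 for Sparc (others 18.13 to 18.67) and N62 had 0.321 for Timp1 (others 0.1913 to 0.2166). In liver at day 60, N43 had 0.07846 for Mmp3 (others 0.05437 to 0.06129) and N59 had 0.036 for Timp1 (others 0.05036 to 0.05338).

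The change at day 42 differed between depots for 6 gene and depot pairs. Thbs2 differed by 0.4927 between labelled mesenteric and labelled subcutaneous fat and, on its other probe set, by 0.838 between labelled perigonadal and labelled subcutaneous fat. Tnc differed by -0.7056 and -0.8169 in those pairs. Nid1 differed by 0.1829 and Mmp3 by -0.4265 between labelled mesenteric and labelled subcutaneous fat. Only the difference of Mmp3 kept its call without the arrays high in other tissues' markers.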

How the results depend on the processing

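Members called at day 42 numbered 19, 21, 16 and 11 in labelled mesenteric, perigonadal, perirenal and subcutaneous fat and 3 in liver, and at day 60 18, 14, 10, 12 and 3. In 1 letter alone, with fewer mice, J mice gave 6, 5, 0 and 0 at day 42 in labelled mesenteric, perigonadal and subcutaneous fat and liver, and N mice gave 11, 2 and 4 in labelled perigonadal, perirenal and subcutaneous fat. At day 60 N mice alone gave 4 in labelled perirenal fat and 6 in liver. Without the arrays high in other tissues' markers, 4 were called in labelled subcutaneous fat at day 42 and 4 in labelled perirenal fat at day 60. With those marker scores as covariates, or with no letter term, labelled subcutaneous fat had 5 at day 60. The fibroblast score as a covariate gave 17 in labelled subcutaneous fat and 5 in liver at day 42 and 16 in labelled perirenal fat at day 60. With the macrophage score as a covariate Mmp2 in labelled perirenal fat changed by 0.1838 and was called, beside -0.0047 and not called; 6, 1, 4 and 1 members of the depots and 1 of liver that were called in neither fit also turned sign. With that score 8 members were lower and 10 higher at day 60 in labelled mesenteric fat, and 3 and 8 in labelled perirenal fat. Centring arrays gave 16 lower and 3 higher in labelled perigonadal fat at day 42, beside 15 and 6, and 0 lower and 2 higher in liver at day 60, beside 1 and 2. For most of these settings the share of all genes called is not given. Whether the members moved more than all genes did therefore cannot be said from these counts. The cause of these changes was not tested.

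Between depots, labelled mesenteric minus perigonadal fat had 0 members called, but 4 without the arrays high in other tissues' markers and 2 with the replicate block. Labelled mesenteric minus subcutaneous fat had 4, but 2 with no filter, with the mean of all probe sets or with no letter term, 1 without those arrays, and 0 in J or N mice alone; the replicate block gave 5. Labelled perigonadal minus subcutaneous fat had 2, but 1 with no filter or no letter term and 0 in mice of either letter taken alone or without those arrays. The replicate block changed no other call. Shares of all genes called between depots under these settings are not given. Leaving out each day 1 mouse in turn gave 0 to 4 members at day 1 in labelled perigonadal fat, 0 to 1 in labelled perirenal fat and 0 in the other tissues.

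Called under all 14 alternatives at day 42 were Timp1 (-0.86 to -0.61), Fbn1, Loxl2, Mmp3, Serpinh1 and Sparc in labelled mesenteric fat, Thbs2 (0.34 to 0.61), Mmp3 and Sparc in labelled perigonadal fat, and Tnc and Sparc in labelled perirenal fat; in labelled subcutaneous fat and liver there was none.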
